A study of Mus musculus with 2 samples.

Results

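CD4 T cells of the epithelium of the mouse proximal small intestine were selected on the UMI counts of marker genes (UMI: unique molecular identifier, 1 counted molecule) in 2 single-cell libraries, and 100 barcodes met the rule, 50 in each library, of 11862 barcodes past the filters and 16451 in all. A member had at least 500 genes and under 25% mitochondrial counts, at least 1 UMI of Ptprc, at least 1 of Cd3d, Cd3e and Cd3g together and at least 1 of Cd4. It had none of Cd8b1 or Trdc, and under 3 UMIs over the cycling genes Top2a, Mki67, Ube2c, Cdk1 and Birc5. These genes chose the members, and Cd8a the barcodes they are compared with, so the 13 are described without a test.

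Both libraries are control samples of C57BL/6 mice from a study in which other mice had M1 or M3 muscarinic acetylcholine receptors knocked down for organoid cultures. Control 1 is titled as a control for M1 and control 2 as a control for M3, so whatever differs between those sets cannot be told apart from library. The tissue was kept in cold 20 mM EDTA for 60 min to loosen villi and then digested for 10 min with TrypLE to free crypts. The pooled suspension passed a 30 µm strainer and needed at least 80% viability, and no sort is named. T cells of the epithelium and of the lamina propria beneath it cannot be told apart in such a suspension. The labels used here give no age or sex and do not say whether the libraries came from separate animals, so p-values measure only the spread between these 2 libraries, which may be technical.

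CD4 T cells recognise peptides on class II MHC molecules through an αβ T cell receptor, with CD4 as the coreceptor, and act largely as helper or regulatory cells. The small intestinal epithelium holds mostly CD8 and γδ T cells, which lie between the enterocytes, are held there by the integrin CD103 (Itgae) that binds E-cadherin, and carry granzymes. CD4 T cells are a minority in this layer, and some of them are known to take up CD8αα, granzymes and other features of the cells around them while losing part of the helper program.

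Members made up 1.95% of the 2562 Ptprc- and Cd3-positive barcodes of control 1 (50 barcodes, exact 95% binomial interval 1.45% to 2.56%) and 3.14% of the 1590 of control 2 (50 barcodes, 2.34% to 4.12%). When each barcode was thinned to 2000 UMIs the shares were 1.14% and 2.02%. Cd4 gave few UMIs, with exactly 1 in 24 and 25 members and a highest count of 5, so the rule can miss CD4 T cells and can also take in barcodes with a stray UMI. Summed over members, Cd4 stood at 374 CPM (the gene's UMIs per 1000000 UMIs of the set, here from 94 UMIs, exact Poisson interval 302 to 458) in control 1 and 315 CPM (101 UMIs, 256 to 382) in control 2. Intervals in these results cover counting error only. Just outside the rule, 15 Cd4-positive T barcodes of control 1 and 6 of control 2 were left out, mainly for Trdc (9 and 3) or Cd8b1 (6 and 4). Of the members, 3 and 1 stood at 2 cycling UMIs, just under the limit.

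Stray Cd4 UMIs set a background for this choice. Epithelial barcodes (Epcam, no Ptprc, no Cd3) carried a Cd4 UMI in 2 of 1674 and 0 of 1102 cases, the latter allowing a share of up to 0.272%. Among T barcodes with Trdc, the γδ chain gene, 9 of 1178 in control 1 (0.764%, 0.350% to 1.45%) and 3 of 756 in control 2 (0.397%, 0.0819% to 1.16%) had a Cd4 UMI. Among non-cycling T barcodes with no Cd8a, Cd8b1 or Trdc the share was 12.2% (37 of 304, 8.72% to 16.4%) and 9.02% (22 of 244, 5.74% to 13.3%), above the Trdc-positive share in both libraries at lower median depths (2564 and 2354 UMIs against 5707.5 and 6155). Those 59 barcodes are the members without Cd8a. Among non-cycling barcodes with Cd8a but no Cd8b1 or Trdc, the share was 1.47% in control 1 (13 of 883, 0.786% to 2.50%), which overlaps the Trdc-positive interval, and 6.57% in control 2 (28 of 426, 4.41% to 9.36%), which lies above it. T barcodes with Cd8b1 and no Trdc gave 3.3% (6 of 181, 1.2% to 7.1%) and 2.0% (3 of 147, 0.42% to 5.8%). In control 2 this interval overlaps those of the classes with and without Cd8a, and in control 1 that of the class with Cd8a only. By these shares the Cd4 of the Cd8a-positive members of control 1 was not distinguishable from either background, although 8 of those 13 had 2 or more Cd4 UMIs. In control 2 it stood above the Trdc-positive background only.

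Members were set against the Ptprc- and Cd3-positive barcodes of their own library with no Cd4 and at least 1 Cd8a UMI, 2000 in control 1 and 1130 in control 2, called the Cd8a-positive barcodes below. Of these, 47.8% and 52.6% carried Trdc, and 243 and 159 carried Cd8b1, the β chain of the conventional CD8 coreceptor. The members summed to 251147 and 320829 UMIs and the Cd8a-positive barcodes to 13344811 and 8032255. Levels in members were therefore measured with less precision, while median depth per barcode was 5019 and 5554.5 UMIs in members against 5764 and 6006.

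Most members carried T cell receptor genes, and a few carried markers of other cells. Trac had a UMI in 34 and 32 members and Cd3e in 44 and 42, but 7 and 8 members had none of Trac, Trbc1 or Trbc2. In control 1, 3 members carried 8 or 9 of 12 myeloid markers, with 26 to 56 UMIs of C1qa, 15 to 79 of Lyz2 and 67 to 300 of Cd74, no αβ receptor UMI, 1 Cd3 UMI and 1 Cd4 UMI each, and their values go against the label. A further member of control 1 had 3 such markers, while in control 2 no member had more than 1 and 9 of the 12 were at 0. Myeloid markers summed to 2126 and 40.5 CPM in members against 160 and 61.9 CPM in Cd8a-positive barcodes, and enterocyte markers, all 11 with a UMI, to 3906 and 7795 CPM against 7425 and 5861 CPM. The B cell markers Cd79a, Pax5 and Fcmr and the plasma cell markers Mzb1 and Derl3 were at 0 in members of both libraries, and the median enterocyte marker share was 0.142% and 0.136% of UMIs. Hemoglobin made up 51.5% of the UMIs of 1 member of control 1 and 8.34% of 1 member of control 2. No member barcode occurs in the other library, and 17 barcodes of any kind do.

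**Figure D1:**
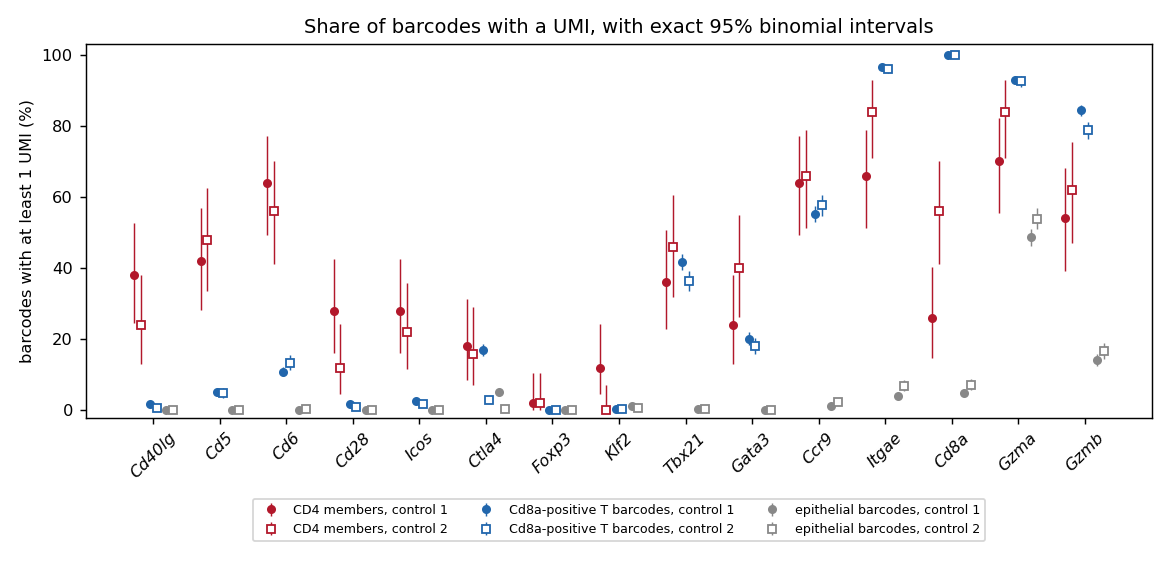
Share of barcodes with at least 1 UMI of each gene (vertical axis, percent) in CD4 members (red), Cd8a-positive T barcodes (blue) and epithelial barcodes (grey); filled circles are control 1, open squares control 2, and lines are exact 95% binomial intervals. Cd40lg, Cd5, Cd6, Cd28 and Icos are more frequent in members, Itgae, Gzma and Gzmb are less frequent, and Gzma also reaches 48.6% and 53.9% of epithelial barcodes.

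Members differed from the Cd8a-positive barcodes by a set of helper and costimulation genes that were higher and granzyme and natural killer receptor genes that were lower. Of 12156 genes tested, 108 (0.888%) were higher and 104 (0.856%) lower at an adjusted p of 0.05 (edgeR quasi-likelihood test with library as a block, Benjamini-Hochberg adjustment over all genes), 1.74% in either direction, and 1013 had an unadjusted p under 0.05. The log2 ratio had the same sign in both libraries for 100 of the 108 and 100 of the 104. Without the comparison barcodes over 50000 UMIs (8 and 5) the counts were 142 and 92, without barcodes with 3 or more myeloid markers 134 and 149, and without those over 1% hemoglobin 110 and 112. The rule keeps Trdc and Cd8b1 out of members but not out of the Cd8a-positive barcodes, so genes that go with those chains are not independent of it. Without the library block, 8 and 1 were called.

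**Figure D2:**
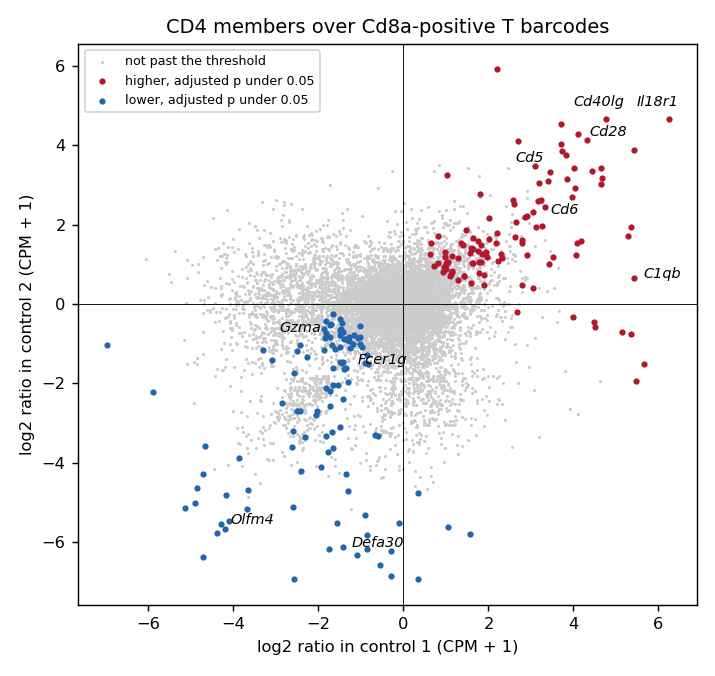
Each point is a tested gene, with the log2 ratio of members to Cd8a-positive barcodes in control 1 (horizontal) and control 2 (vertical), both on CPM + 1; red and blue points pass an adjusted p of 0.05 and grey points do not. Cd5, Cd28, Cd40lg and Il18r1 are high in both libraries, C1qb is high in control 1 alone (5.43 against 0.65), and Defa30 is low mainly in control 2.

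CD5 is a scavenger-receptor family protein that dampens T cell receptor signalling. Cd5 (chromosome 19, 10717116 to 10739002, minus strand, GRCm38) was at 215 and 212 CPM in members of control 1 and control 2, against 15.3 and 13.7 CPM in Cd8a-positive barcodes. The groups did not overlap, the level in members was 214 ± 2.17 CPM (SD, n = 2), and the log2 fold change was 3.85 ± 0.23 (SE, edgeR adjusted p = 3.35e-07; over 18 alternative fits from 2.91e-48 to 0.00673). It was detected in 21 and 24 of 50 members, 42.0% and 48.0%, against 5.10% and 4.78% of Cd8a-positive barcodes. Cd6, the neighbouring relative of Cd5, was at 335 and 259 CPM against 34.5 and 41.0 CPM, with a log2 fold change of 2.94 ± 0.22 (edgeR adjusted p = 1.42e-06).

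Il18r1 and Il18rap encode the chains of the receptor for interleukin 18, a cytokine that the gut epithelium makes. Il18r1 (chromosome 1, 40465552 to 40500854, plus strand, GRCm38) was at 115 and 59.2 CPM in members and at 0.524 and 1.37 CPM in Cd8a-positive barcodes. Its log2 fold change of 6.53 ± 0.73 (edgeR adjusted p = 7.87e-05; over 18 alternative fits from 1.49e-18 to 0.02) was the highest among the genes the naming rule took, on 29 and 19 UMIs in 9 members of each library, 15 of the 29 from 1 member. Il18rap was at 71.7 and 24.9 CPM against 1.87 and 1.87 CPM, 4.55 ± 0.75 (edgeR adjusted p = 0.00298).

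The windows of 250 bases before the starts of Cd5 and Il18r1 are shown as examples of genes higher in members and called in all 18 alternative fits, as Rora and Pde11a also were (RefSeq, GRCm38.p6, 5′ to 3′ on the strand of the gene; Cd40lg, Cd28 and Icos have no entry in the table used). Capitals mark matches on either strand to the letters TGTGGT of the Runx core, CAGGTG of the E-box and GGAAGT of the ETS core.
Cd5, chr19:10738975-10739224, minus strand: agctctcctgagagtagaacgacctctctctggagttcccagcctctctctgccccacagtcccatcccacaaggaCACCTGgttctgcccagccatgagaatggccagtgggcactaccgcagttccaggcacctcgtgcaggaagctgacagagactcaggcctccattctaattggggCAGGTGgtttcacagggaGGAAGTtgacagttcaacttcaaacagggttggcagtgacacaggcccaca
Il18r1, chr1:40465302-40465551, plus strand, 1 of 3 starts listed: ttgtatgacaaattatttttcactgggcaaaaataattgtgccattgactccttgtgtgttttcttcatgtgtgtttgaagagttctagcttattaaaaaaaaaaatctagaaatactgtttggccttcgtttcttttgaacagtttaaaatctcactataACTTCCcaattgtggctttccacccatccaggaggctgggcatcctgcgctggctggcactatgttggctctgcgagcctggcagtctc
The Cd5 window holds CAGGTG at 69 and, on the other strand, 174 bases before the start, and GGAAGT at 51 bases before it. The Il18r1 window holds GGAAGT on the other strand, 89 bases before the start. Of 32851 windows of the same length, 14.0% hold TGTGGT, 17.2% CAGGTG and 19.7% GGAAGT on either strand. These matches are letters in a window, and neither binding nor use of these starts was measured here.

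Costimulation and checkpoint genes shape how strongly a T cell responds once its receptor is engaged. Of 15 tested, 5 were higher and 1 lower, with a median log2 fold change of 0.13 against -0.07 over all genes. Over all 12156 genes tested, 0.888% were higher and 0.856% lower, the shares that stand beside this and every list count below. Cd40lg, the helper signal to B cells and antigen-presenting cells, was at 155 and 62.3 CPM in members against 4.72 and 1.49 CPM. Both members' sums lay above both comparison sums, with a log2 fold change of 5.13 ± 0.47 (edgeR adjusted p = 1.36e-05), and 38.0% and 24% of members had a UMI against 1.70% and 0.708%. Cd28, the main costimulatory receptor, was at 79.6 and 49.9 CPM against 3.67 and 1.62 CPM (4.62 ± 0.62, edgeR adjusted p = 0.000447), and its inducible relative Icos was at 99.5 and 56.1 CPM against 6.07 and 3.24 CPM (4.03 ± 0.51, edgeR adjusted p = 0.000268). None of Cd40lg, Cd28 and Icos had a UMI in more than 1 epithelial barcode of either library. The checkpoint receptor Ctla4 rose by a log2 fold change of 2.12 ± 0.46 (edgeR adjusted p = 0.0244), at 83.6 and 81.0 CPM in members, but its level in Cd8a-positive barcodes differed between the libraries (40.4 and 7.59 CPM). In control 1 the share with a Ctla4 UMI was 18.0% in members and 16.9% in Cd8a-positive barcodes. Cd226, an activating receptor, was also higher (1.26 ± 0.23) and Cd244a, a receptor of cytotoxic cells, was lower (-1.08 ± 0.20). Pdcd1 had 1 UMI in control 1 and 0 in control 2 over all members and was not tested.

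**Figure D3:**
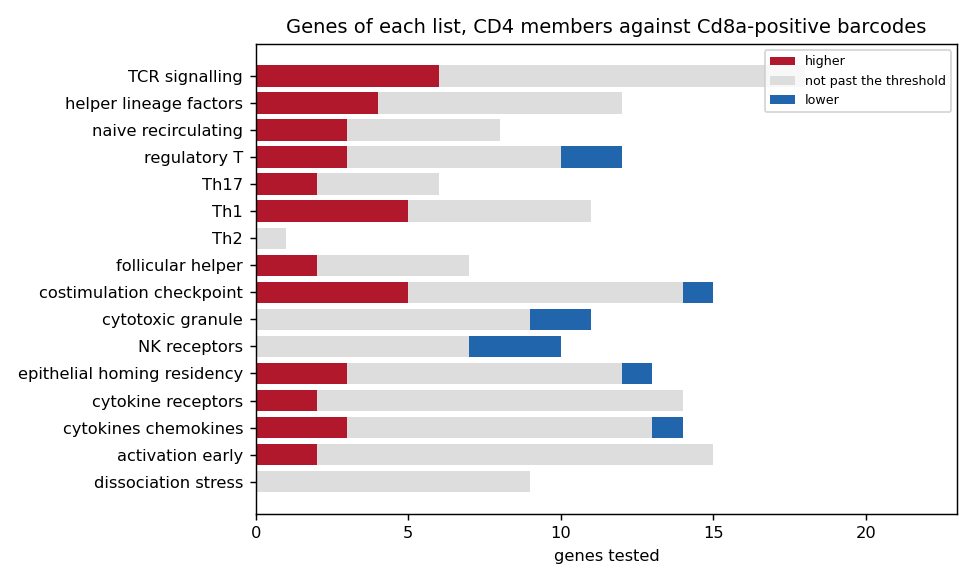
Number of tested genes in each of 16 gene lists (horizontal axis), split into higher in CD4 members (red), not past the threshold (grey) and lower (blue) against Cd8a-positive barcodes. The receptor signalling list has 6 of 18 higher, the granule and natural killer receptor lists have 2 of 11 and 3 of 10 lower, and the stress list has none called. Over all 12156 genes tested, 0.888% were higher and 0.856% lower.

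T cell receptor signalling genes were higher in 6 of 18 cases (Lat, Cd2, Cd5, Cd6, Thy1 and Ubash3a) and lower in none, with a median log2 fold change of 0.53. The 6 are mostly adhesion and modulating receptors. Cd2, which binds its partner on antigen-presenting cells, stood at 71.7 and 40.5 CPM against 10.6 and 8.84 CPM (2.46 ± 0.49, edgeR adjusted p = 0.0139). Thy1 was at 235 and 150 CPM against 33.0 and 50.5 CPM (2.17 ± 0.27, edgeR adjusted p = 0.000268). The kinases of the receptor did not pass: Lck was at 577 and 583 CPM against 479 and 509 CPM (0.20 ± 0.18), and Zap70 at 139 and 162 CPM against 185 and 168 CPM (-0.25 ± 0.21). Trac did not pass either (0.26 ± 0.18), with 494 and 402 CPM in members and 433 and 304 CPM in Cd8a-positive barcodes.

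Transcription factors of the helper lineage were higher in 4 of 12 cases, Runx1, Tcf7, Lef1 and Bcl11b, with a median log2 fold change of 0.88. Against the CD8αβ subset described below, Tcf7 (0.28) and Bcl11b (0.12) were not called. Runx1 was at 537 and 508 CPM against 172 and 161 CPM, a log2 fold change of 1.62 ± 0.19 (edgeR adjusted p = 0.00012). Lef1, a mediator of Wnt signals kept by naive and memory cells, was at 191 CPM in control 1 and 31.2 CPM in control 2 against 10.6 and 12.6 CPM (3.0 ± 0.54, edgeR adjusted p = 0.00716). Zbtb7b (ThPOK), the factor that commits thymocytes to the CD4 lineage, did not pass, with 2 and 11 UMIs, 7.96 and 34.3 CPM, against 18.7 and 16.4 CPM (0.26 ± 0.60). It was detected in 2 and 7 members, 4.00% (0.488% to 13.7%) and 14.0% (5.82% to 26.7%), against 9.25% and 8.32% of Cd8a-positive barcodes, shares that the intervals include. Epithelial barcodes reached 21.2% and 26%. Runx3, the CD8 lineage factor, did not pass at 390 and 492 CPM against 448 and 657 CPM (-0.34 ± 0.18).

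Genes that keep naive T cells recirculating had UMIs in members of control 1 and none in control 2. Ccr7 and S1pr1, which guide cells into and out of lymph nodes, had 3 and 7 UMIs in control 1 and 0 in control 2 and were too low to test. Klf2, which drives S1pr1, had 19 UMIs in 6 members of control 1 and 0 in control 2 (3.48 ± 1.10, edgeR adjusted p = 0.209). At least 1 of these 3 genes was present in 7 of 50 members of control 1 and in 0 of 50 of control 2, which allows a share with a UMI of up to 6%, and 4 of the 7 had no Itgae UMI. Of the 8 genes of this list that could be tested, 3 rose (Lef1, Tcf7 and Il7r, the interleukin 7 receptor that supports survival), with a median log2 fold change of 2.43. Il7r was at 454 and 140 CPM against 39.0 and 61.4 CPM (2.43 ± 0.38, edgeR adjusted p = 0.00212).

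Type 1 helper genes gave 5 higher of 11 tested and none lower (median log2 fold change 1.03), among them Cxcr3, Cxcr6, Il18r1 and Il18rap, receptors for chemokines or cytokines. Tbx21 (T-bet), the factor of this lineage, did not pass (0.11 ± 0.24) and was detected in 36.0% (22.9% to 50.8%) and 46.0% (31.8% to 60.7%) of members against 41.8% and 36.5%. Ifng had 10 and 5 UMIs in 7 and 5 members, 39.8 and 15.6 CPM against 9.07 and 10.7 CPM, and did not pass (1.39 ± 0.64, edgeR adjusted p = 0.587).

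Genes of type 17 cells gave 2 higher of 6 tested, Rora and Maf, neither of them exclusive to that lineage. Rora was at 410 and 240 CPM in members against 39.6 and 43.6 CPM, a log2 fold change of 2.90 ± 0.23 (edgeR adjusted p = 3.56e-06; called in all 18 alternative fits). Maf was at 191 and 153 CPM against 68.3 and 41.1 CPM (1.65 ± 0.22, edgeR adjusted p = 0.000386). The cytokine genes Il17a, Il17f and Il22 had 0 UMIs in members of both libraries, which allows up to 6% of the members of each with a UMI.

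The type 2 cytokines Il5 and Il13 were at 0 in both libraries, and Il4 had 6 UMIs in control 1 and 0 in control 2. Gata3, which type 2 cells need and other T cells also express, was at 67.7 and 93.5 CPM against 36.3 and 31.5 CPM and did not pass (1.23 ± 0.32, edgeR adjusted p = 0.0778). Of the follicular helper genes, 2 of 7 tested were higher, Icos and Sh2d1a, while Bcl6 did not pass (-0.62 ± 0.47) and Cxcr5 and Il21 were at 0 in members.

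Foxp3, the factor of regulatory T cells, had 1 UMI in 1 member of each library, 2.00% (0.0506% to 10.7%), against 0.05% and 0.177% of Cd8a-positive barcodes and 0 of the epithelial barcodes. Both Foxp3-positive members had 3 Ctla4 UMIs and none of Itgae or Cd8a, the member of control 1 had 8 Klf2 UMIs, and that of control 2 had 5 UMIs each of Cd28 and Cd5. With 1 barcode per library, no test between Foxp3-positive and other members was run. Of 12 regulatory T cell genes tested, 3 were higher (Ctla4, Izumo1r and Icos) and 2 lower. The folate receptor Izumo1r was at 19.9 and 31.2 CPM against 2.25 and 0.872 CPM (4.06 ± 0.83, edgeR adjusted p = 0.0164). The lower genes were Ikzf2 (Helios), at 434 and 789 CPM against 1224 and 1027 CPM (-0.96 ± 0.23, edgeR adjusted p = 0.0454), and Tnfrsf9. Il2ra had 2 and 5 UMIs and Il10 had 0.

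Granule genes of cytotoxic cells were lower in 2 of 11 cases and higher in none, with a median log2 fold change of -0.48. Gzma, a granzyme, was at 8178 and 15420 CPM in members against 25730 and 18500 CPM in Cd8a-positive barcodes (-0.99 ± 0.23, edgeR adjusted p = 0.04). Gzmb was at 1402 and 1390 CPM against 3717 and 2582 CPM (-1.18 ± 0.18, edgeR adjusted p = 0.0015). In epithelial barcodes, which should lack these genes, Gzma was at 121 and 139 CPM and Gzmb at 24.7 and 28.7 CPM, below the levels in members. Perforin (Prf1) was at 47.8 and 28.1 CPM against 69.8 and 59.0 CPM and did not pass.

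Natural killer receptor genes were lower in 3 of 10 cases, Klrd1 (CD94), Fcer1g and Tyrobp, with a median log2 fold change of -0.85 and none higher. Klrd1 was at 402 and 573 CPM in members against 1344 and 829 CPM (-1.16 ± 0.24, edgeR adjusted p = 0.0173). Fcer1g, a signalling adaptor of many receptors, was at 729 and 455 CPM against 1731 and 975 CPM (-1.21 ± 0.18, edgeR adjusted p = 0.00114). Tyrobp, a related adaptor, was at 382 and 190 CPM against 1020 and 527 CPM (-1.47 ± 0.19, edgeR adjusted p = 0.000315). Myeloid cells also carry both adaptors, and without barcodes with 3 or more myeloid markers the log2 fold changes were -1.59 for Fcer1g and -2.14 for Tyrobp.

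Homing and residency genes gave 3 higher (Itga4, Ccr9 and Cxcr6) and 1 lower of 13, with a median log2 fold change of -0.22. Against the CD8αβ subset described below, 0 of 13 tested were higher and 0 lower. The α4 integrin Itga4, part of the receptor for the gut vessel addressin, was at 243 and 290 CPM against 71.0 and 95.6 CPM (1.65 ± 0.19, edgeR adjusted p = 0.00014). Ccr9, the receptor for the small intestinal chemokine CCL25, was at 402 and 368 CPM against 181 and 211 CPM (0.94 ± 0.19, edgeR adjusted p = 0.0173), and 64.0% and 66.0% of members had a UMI. The collagen-binding Itga1 was lower (-0.81 ± 0.19). Itgae was at 593 and 680 CPM against 849 and 1005 CPM and did not pass (-0.57 ± 0.18, edgeR adjusted p = 0.185). By share, 66.0% (51.2% to 78.8%) and 84.0% (70.9% to 92.8%) of members had an Itgae UMI against 96.7% and 96.0% of Cd8a-positive barcodes, and 50% and 67.4% against 80.7% and 85.7% after thinning to 2000 UMIs. Epithelial barcodes reached 4.00% and 6.81%.

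Among cytokines and chemokines, 3 of 14 were higher (Cd40lg, Ltb and Tnfsf11) and Ccl5 was lower. Lymphotoxin β (Ltb) was at 223 and 215 CPM against 113 and 94.5 CPM (1.05 ± 0.20, edgeR adjusted p = 0.00898). Tnfsf11 (RANKL), which acts on the epithelium and on osteoclast precursors, rested on 7 and 6 UMIs, 27.9 and 18.7 CPM against 0.45 and 0.125 CPM (6.19 ± 0.97, edgeR adjusted p = 0.00205). Ccl5 was at 7247 and 10470 CPM against 19650 and 14590 CPM (-0.99 ± 0.19, edgeR adjusted p = 0.0114). Of 14 cytokine receptors, Il7r and Il18r1 were higher and none lower, and the shared γ chain Il2rg did not pass (0.22 ± 0.20). Early activation genes gave 2 higher of 15, Dusp2 and the memory marker Cd44, at a median of 0.00, and of 9 dissociation stress genes none passed in edgeR or in DESeq2, with 0 at an unadjusted p under 0.05.

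Of the 10 highest genes by the naming rule, Il18r1, Cd40lg, Cd28, Icos, Cd5 and 3 others kept their call without myeloid-marked barcodes. The others are Ly6a, a surface antigen of activated lymphocytes (155 and 53.0 CPM against 5.24 and 5.6 CPM, 4.12 ± 0.49), Pde11a, a cyclic nucleotide phosphodiesterase (111 and 90.4 CPM against 6.82 and 9.21 CPM, 3.63 ± 0.40), and Gpr183, an oxysterol receptor that guides lymphocytes (87.6 and 12.5 CPM against 4.20 and 3.61 CPM, 3.37 ± 0.76). C1qb and Apol7c were the exceptions. C1qb, a complement gene of macrophages, had 136 UMIs in control 1, 134 of them in the 3 myeloid-marked members, and 1 in control 2, and its log2 fold change went from 5.03 to 1.45 (edgeR adjusted p = 0.952) without such barcodes. All 41 UMIs of Apol7c in control 1 lay in those 3 members.

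The 10 lowest genes by the same rule are mostly known from Paneth and other crypt cells: Mmp7, Clca3b, Mptx2, Defa36, Defa26, Defa5, AY761184, Defa29, Defa30 and Olfm4. Their UMIs in the comparison lay mainly in 1 barcode of each library or of control 2 alone. In control 2, 1 Cd8a-positive barcode of 615784 UMIs held 68195 of the 69279 Defa30 UMIs, 98.4%, and between 68.4% and 99.5% of the UMIs of the other genes, and in control 1 a barcode of 200397 UMIs held 1030 of the 1284 UMIs of Olfm4. Without comparison barcodes over 50000 UMIs, the log2 fold change of Defa30 went from -5.46 to -0.67 (edgeR adjusted p = 0.4) and that of Olfm4 from -5.44 to -1.67 (edgeR adjusted p = 0.677). None of the 10 was called then, with Mmp7, Clca3b, Mptx2 and Defa5 too low to test.

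Constant genes of the γ chain were in the fit, but are given here without p-values, since the rule on Trdc bears on them. Tcrg-C1 is among the 104 genes called lower. Tcrg-C1 was at 87.6 and 150 CPM in members against 527 and 503 CPM, and Tcrg-C4 at 107 and 302 CPM against 378 and 372 CPM. Tcrg-C2 was at 211 and 290 CPM against 404 and 339 CPM. These γ constant genes are near-identical in part, and how shared reads were counted is not stated in the labels.

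The Cd8a-positive comparison mixes γδ, CD8αα and CD8αβ T cells. Members were therefore also set against its barcodes with Cd8b1, no Trdc and under 3 cycling UMIs, 159 and 128, taken as conventional CD8αβ T cells. There 92 genes were higher and 81 lower of 7772 tested (2.23% in all), and 53 of the 173 were among the 212 of the main comparison. Cd40lg was at 30.0 and 2.97 CPM in these cells (log2 fold change of members 2.87 ± 0.40, edgeR adjusted p = 3.45e-10), Cd28 at 41.7 and 10.9 CPM (1.41 ± 0.42, edgeR adjusted p = 0.0356), Icos at 48.2 and 10.9 CPM (1.52 ± 0.39, edgeR adjusted p = 0.00579) and Cd5 at 156 and 67.3 CPM (1.02 ± 0.24, edgeR adjusted p = 0.0025). All 4 were higher in members, with lower log2 fold changes than against the whole comparison, a difference that was not tested. Il18r1 (4.12 ± 0.52), Il18rap, Rora (1.29 ± 0.23), Runx1 (1.63 ± 0.21) and Izumo1r were higher too. Maf and Lef1 were also called higher, but the difference lay mainly in control 1. Lef1 was at 191 CPM in members against 37.5 CPM in control 1 and 31.2 against 29.7 CPM in control 2. Maf was at 191 against 35.3 CPM in control 1 and 153 against 139.5 CPM in control 2.

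Other differences were not called or had the opposite sign against CD8αβ T cells. Cd6 (0.28), Thy1 (0.11), Il7r (0.29), Cd2 (0.05), Tcf7 (0.28) and Bcl11b (0.12) did not pass. Nor did Itga4 (0.33), Ccr9 (0.31), Cxcr6 (0.56) and Cxcr3 (0.50). Lat (-0.36), Cd226 (-0.30) and Ltb (-0.035) had the opposite sign without passing. Fcer1g was higher in members (1.92 ± 0.22, edgeR adjusted p = 8.09e-16; 273 and 78.2 CPM in the CD8αβ cells), as were Klrd1 (1.04 ± 0.21), Klre1 (3.78 ± 0.37) and Ikzf2 (1.13 ± 0.21). Gzma was called higher (0.39 ± 0.09, edgeR adjusted p = 0.000962), but the libraries disagreed, with 8178 CPM in members against 8766 CPM in control 1 and 15420 against 8162 CPM in control 2. Of the natural killer receptor genes that could be tested here, 4 of 5 were higher and none lower. The main comparison tested more of the list, with 0 of 10 higher and 3 lower. Klre1 (9 and 12 UMIs) and Klrk1 (3 and 17) were low in the CD8αβ cells. Klrd1 in members lay mainly in those with Cd8a, with 96 and 180 UMIs against 5 and 4 in the others. In control 1, the 3 myeloid-marked members held 9, 26 and 46 Fcer1g UMIs. Against non-cycling barcodes with neither Cd8b1 nor Trdc (870 and 398), 95 genes were higher and 73 lower of 9593 tested (1.75%). There Cd5 (4.25), Cd6 (4.00), Cd28 (6.81) and Thy1 (4.18) had log2 fold changes above those of the main comparison.

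**Figure D4:**
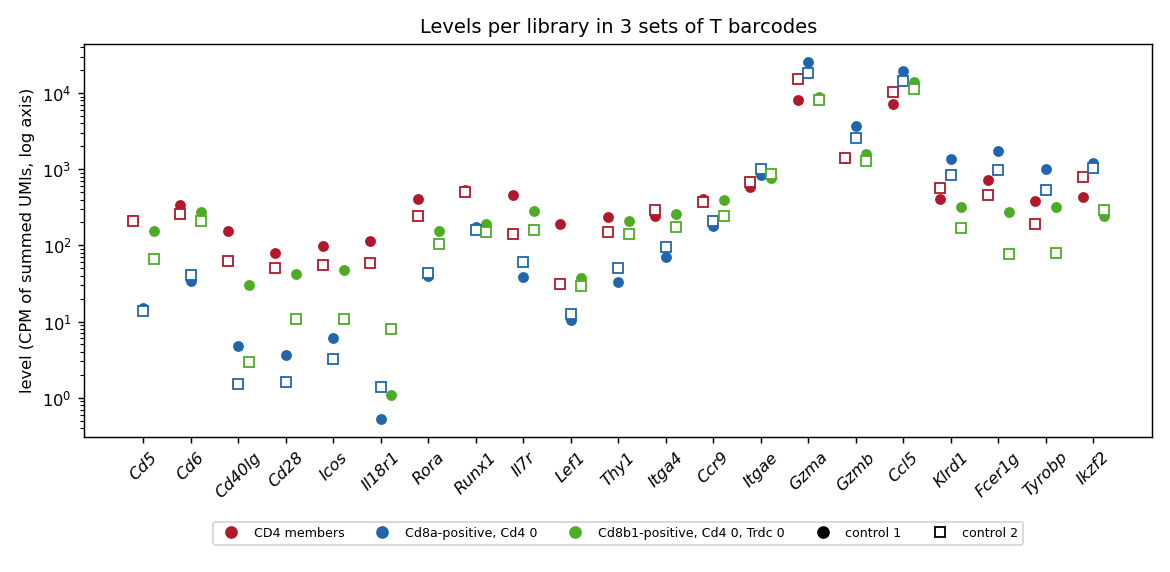
Level of each gene (vertical axis, CPM of summed UMIs, log scale) in CD4 members (red), Cd8a-positive barcodes (blue) and the non-cycling Cd8b1-positive, Trdc-negative barcodes among them (green). Filled circles are control 1 and open squares control 2. Cd40lg, Cd28, Icos and Il18r1 are highest in members, Cd6, Thy1 and Il7r lie close to the Cd8b1-positive barcodes, and Klrd1, Fcer1g and Ikzf2 lie between the other sets.

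Members were not alike, and many genes differed with Cd8a. At least 1 Cd8a UMI was present in 13 of 50 members of control 1 (26%, 14.6% to 40.3%) and 28 of 50 of control 2 (56.0%, 41.2% to 70.0%), against 5.02% and 7.17% of epithelial barcodes. After thinning to 2000 UMIs the shares were 19.6% and 45.7%. CD8α without CD8β forms the CD8αα homodimer that marks activated intraepithelial lymphocytes, and members have no Cd8b1 by the rule. With 13 such barcodes in control 1, under the 20 set for a test, no test was run, and the values are given per library.

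Gzma, Gzmb, Ccl5, Klrd1 and Klre1 lay mainly in the Cd8a-positive members. Gzma was at 24190 CPM in Cd8a-positive and 667 CPM in Cd8a-negative members of control 1 (36.3-fold, exact interval 30.0 to 44.2), and at 22500 and 811 CPM in control 2 (27.7-fold, 22.4 to 34.8). The Cd8a-positive members thus stood near the Cd8a-positive comparison (25730 and 18500 CPM) and the others far below it, though above the epithelial level. Gzmb was at 3953 against 205 CPM in control 1 and 1898 against 344 CPM in control 2. Ccl5 was at 16950 against 2696 CPM and 13790 against 3637 CPM, and Klrd1 at 1197 against 29.2 CPM and 833 against 38.2 CPM. Klre1 had 28 UMIs in Cd8a-positive and 1 in Cd8a-negative members of control 1, and 61 and 0 in control 2.

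Cd28, Icos, Cd2, Il7r and Tcf7 had the opposite distribution, and some other genes, given below, did not share it in both libraries. Cd28 had no UMI in any of the 41 Cd8a-positive members and 20 and 16 UMIs in the others, at least 3.13-fold and 11-fold lower in Cd8a-positive members when set against a limit of 3 counts per library. Icos had 0 and 1 UMI against 25 and 17, Cd2 had 1 and 1 against 17 and 12, and Il7r was at 37.4 and 32.4 CPM against 649 and 363 CPM (17.4-fold and 11.2-fold). Tcf7 was at 12.5 and 23.1 CPM against 164 and 162 CPM. Cd5 and Cd40lg were less divided: Cd5 was at 125 against 257 CPM in control 1 (ratio of Cd8a-negative to Cd8a-positive members 2.06, interval 1.02 to 4.6) and 153 against 334 CPM in control 2 (2.19, 1.32 to 3.63). Cd40lg had a ratio of 1.82 (0.817 to 4.58) in control 1, where the interval includes 1, and 3.83 (1.42 to 11.3) in control 2. In Cd8a-positive members Cd5 lay in 2 of 13 and 10 of 28 barcodes. Cd5 and Cd40lg still stood above the Cd8a-positive comparison there, Cd5 at 125 and 153 CPM against 15.3 and 13.7 CPM and Cd40lg at 99.8 and 32.4 CPM against 4.72 and 1.49 CPM. Il18r1 had 0 UMIs in Cd8a-positive and 29 in Cd8a-negative members of control 1, but 12 and 7 in control 2 (ratio of negative to positive 1.20, 0.401 to 3.31). Cxcr3 had ratios of 1.04 (0.454 to 2.6) in control 1 and 19.6 (4.73 to 173.5) in control 2, and those of Tbx21 were 1.33 (0.5 to 4.12) and 0.825 (0.354 to 1.78). Zbtb7b had 0 UMIs against 2 in control 1 and 8 against 3 in control 2.

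Runx3 and Runx1, the lineage factors, differed by smaller ratios. Runx3 was 2.05-fold (1.35 to 3.10) and 1.77-fold (1.20 to 2.67) higher in Cd8a-positive members, and Runx1 was 1.88-fold and 1.55-fold higher in Cd8a-negative ones. Itgae was 3.08-fold and 1.59-fold higher in Cd8a-positive members and was present in 12 of 13 and 26 of 28 of them, against 21 of 37 and 16 of 22 of the others. Trac did not differ beyond its interval in either library (ratios 1.22, 0.823 to 1.77, and 1.04, 0.711 to 1.55), and an αβ receptor UMI was present in 13 of 13 and 26 of 28 Cd8a-positive members against 30 of 37 and 16 of 22, as in 1914 of 2000 and 1000 of 1130 comparison barcodes. Among γ chain genes, Tcrg-C1 was 13.5-fold (3.98 to 71.2) and 2.10-fold (1.0 to 4.93) higher in Cd8a-positive members. Tcrg-C4 was 7.46-fold (2.91 to 22.6) and 1.65-fold (1.02 to 2.79) higher in them. Tcrg-C2 did not share this in both libraries, at a ratio of 2.58 (1.45 to 4.62) in control 1 and 0.88 (0.57 to 1.39) in control 2. Tcrg-C4 had a UMI in 10 of 13 and 16 of 28 of them, against 5 of 37 and 8 of 22 of the others. The libraries did not agree for Ikzf2, which was 21.1-fold higher in Cd8a-positive members of control 1 and at a ratio of 0.975 (0.746 to 1.28) in control 2, or for Fcer1g, which was 2.51-fold higher in control 1 and had 145 UMIs against 1 in control 2. The 3 myeloid-marked members of control 1, all without Cd8a, held 9, 26 and 46 of the 84 Fcer1g UMIs of its Cd8a-negative members.

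**Figure D5:**
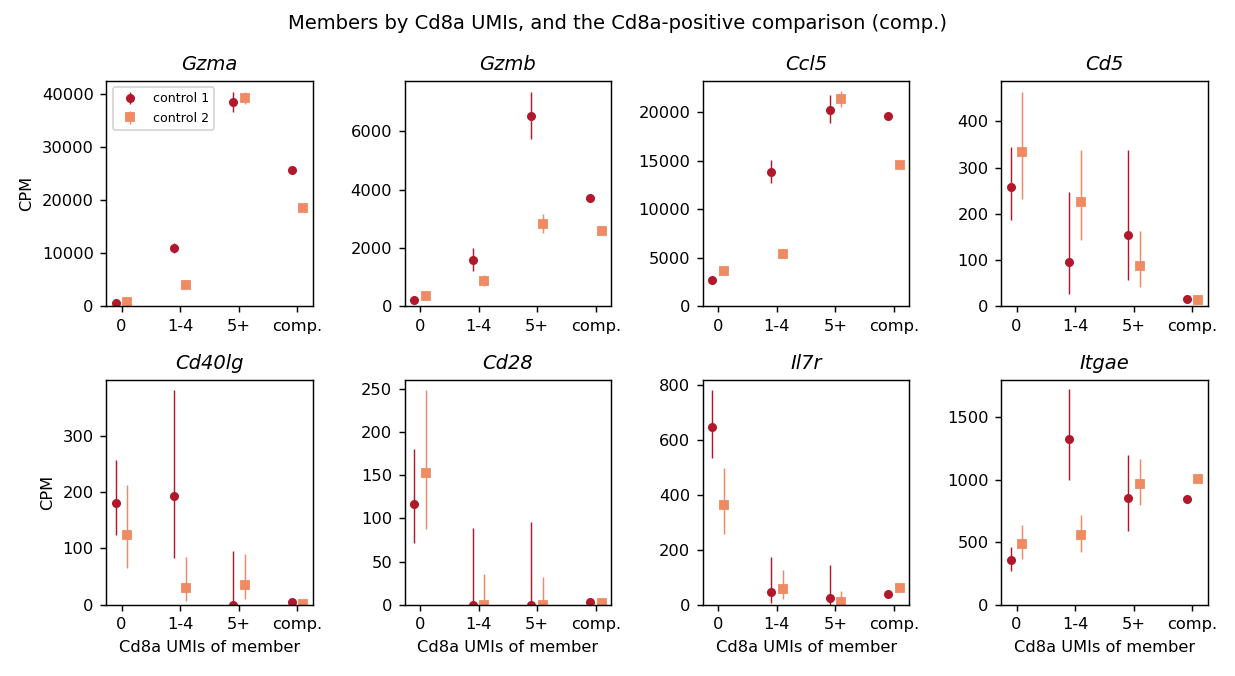
Level of 8 genes (vertical axes, CPM) in members with 0, 1 to 4 and 5 or more Cd8a UMIs and in the Cd8a-positive comparison (comp.); circles are control 1, squares control 2, and lines are exact 95% Poisson intervals. Gzma rises from 667 and 811 CPM at 0 Cd8a UMIs to 38410 and 39170 CPM at 5 or more, while Cd28 has no UMI above 0 Cd8a UMIs.

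Gzma and Il7r went in opposite directions over classes of Cd8a count. In the 37 and 22 members with none, Gzma was at 667 and 811 CPM, in the 7 and 15 with 1 to 4 it was at 10910 and 3986 CPM, and in the 6 and 13 with 5 or more at 38410 and 39170 CPM. The last value exceeded the comparison in both libraries, but the comparison needs only 1 Cd8a UMI and was not split by Cd8a count. Il7r went from 649 and 363 CPM to 48.3 and 58.6 CPM and to 25.8 and 8.79 CPM over the same classes, the latter on 1 UMI in each library. At least 1 of Cd40lg, Cd5, Cd6, Cd28 and Icos was present in 38 and 33 members, and 1 and 2 of the members with 5 or more Cd8a UMIs had any of them together with that count. Cd8a-positive members were deeper, with median totals of 6495 and 6570 UMIs against 4247 and 4816.5 in Cd8a-negative ones and 5764 and 6006 in the comparison. The part of depth in these values was not tested.

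The comparison was also made with Cd8a absent from all members, a choice made after seeing the data that sets the groups apart on Cd8a itself. With the 37 and 22 Cd8a-negative members alone, 254 genes were higher and 412 lower of 11826 tested, 5.63%, and 195 of the 212 genes of the main comparison were among them. Gzma then had a log2 fold change of -5.01, against -0.99 over all members.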

How the data were processed

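Both 10x Genomics Chromium 3' libraries were read as whole-number UMI counts per gene and barcode, as deposited by the authors. The submitters' processing notes name Cell Ranger (6.1, 7.1.0) with GRCm38 and mm10, without saying which version made these files or whether intronic reads were included. No doublet caller was run. Counts of members and of comparison barcodes were summed per library and tested with edgeR 4.0.16 (R 4.3.3; filterByExpr, TMM, quasi-likelihood, library as a block because both sums of a library share 1 suspension, 1 residual degree of freedom, Benjamini-Hochberg over all genes, threshold 0.05). CPM are summed counts over summed UMIs. The 13 rule genes had no test. Named genes were the 10 largest changes each way past the threshold (mean of the higher sums at least 50 CPM, same direction in both libraries, no gene models) and passing and lead genes of 16 lists; other names were chosen after their values were seen. The members and lists were chosen with earlier results of these data known. On simulated counts for 11806 genes the test recovered 6.12% of 2-fold, 67.3% of 4-fold and 79.6% of 16-fold changes, with 5 false calls of 118. Those counts were drawn with the fit's own dispersion and without single deep or myeloid-marked barcodes, so they do not give the error rate of the real calls. A gene's share of cells and its level per cell cannot be told apart in sums. In the alternatives, DESeq2 1.42.0 was also used on the counts. Gene coordinates are from GENCODE M21 and promoters from RefSeq.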

Additional observations from a re-analysis of the deposited data

How the results depend on the processing

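Each library supplied both sums, so library pairs them by origin; no replicate block gave 8 genes higher and 1 lower, all 9 among those called with it. The DESeq2 Wald test gave 55 and 22. The counts were 183 lower with no filter on low counts, 208 and 161 without the 6% deepest T barcodes, 43 and 27 without barcodes with B, plasma or myeloid markers or over 1% epithelial marker UMIs, and 157 lower with at least 2 Cd4 UMIs. Of the alternatives chosen after seeing the data, members with an αβ receptor UMI gave 216 lower, members without Cd8a 254 and 412, and barcodes with Itgae in both sets 70 higher. The causes were not tested. Of 1069 values of 56 named genes under alternative settings, 868 kept direction and side of the threshold, 181 kept direction only and 20 reversed.

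The direction of C1qb reversed with at least 2 Cd4 UMIs (-1.11), in members with an αβ receptor UMI (-0.69) and with Itgae in both sets (-1.37). Defa36 reversed without the 6% deepest T barcodes (1.51) and without comparison barcodes over 50000 UMIs (0.55), and Defa29 under thinning (0.24), without the 6% deepest (0.54), without other cells' markers (0.83), against Cd8b1- and Trdc-negative barcodes (0.42) and without those over 50000 UMIs (0.67). Against Cd8b1-positive barcodes the values reversed for AY761184 (0.18), Defa30 (0.0769), Cd226 (-0.30), Fcer1g (1.92), Gzma (0.39), Ikzf2 (1.13), Klrd1 (1.04), Lat (-0.36), Ltb (-0.035) and Tyrobp (0.69).

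Averaged over libraries, members were 2.55% of T barcodes, 1.29% with at least 2 Cd4 UMIs and 1.58% thinned. Thinned to 2000 UMIs, shares of members with a UMI went from 2.00% to 0% for Foxp3, from 41.0% to 20.6% for Tbx21, from 32.0% to 15.2% for Gata3, from 9% to 3.26% for Bcl6, from 75.0% to 58.7% for Itgae, from 17.0% to 10.9% for Ctla4, from 58.0% to 43.5% for Gzmb, from 12% to 3.26% for Ifng and from 65.0% to 51.1% for Ccr9. With at least 2 Cd4 UMIs they were 0% for Foxp3, 49.0% for Tbx21, 19.6% for Ctla4, 66.7% for Gzmb, 15.5% for Ifng and 66.7% for Ccr9. Without other cells' markers they were 3.79% for Foxp3, 51.0% for Tbx21, 12.7% for Ctla4 and 73.1% for Ccr9. Leaving out a library leaves 1 sum each and no test: the Cd8a share then ranged from 26% to 56.0% and the log2 ratio of Cd5 from 3.73 to 3.86. Tests on Cd8a or Foxp3 classes of members were not run, since a library held fewer than 20 such barcodes.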
